A study of Mus musculus with 12 samples.

Results

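The genes described here are 35 cyclins, cyclin-dependent kinases, replication factors, mitotic genes and kinase inhibitors, listed by name, and each is a row among the 24421 gene symbols counted in every library. The RNA came from whole islets, the hormone-secreting cell clusters of the pancreas, of mice fed a high-fat diet for 6 weeks. In 6 libraries (BKO) the mice were Il22ra1βKO, a name for loss of the interleukin-22 receptor subunit Il22ra1 in β cells, the insulin-producing cells. The other 6 libraries (Cre) came from Ins2Cre control mice, named for Cre recombinase driven from the insulin gene Ins2. The labels give no age, strain background or sex, do not state whether the BKO mice also carry Ins2Cre, and do not say whether a library is 1 animal or a pool, so a p-value here reflects only how these libraries vary, which may be technical in part. The design asks how the islet transcriptome on this diet differs when β cells lack the receptor subunit.

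A cell that leaves rest first makes D-type cyclins, which activate Cdk4 and release E2F transcription factors from the retinoblastoma protein. E-type cyclins with Cdk2 then start DNA replication, for which the Mcm helicase is loaded on DNA and Pcna holds the polymerase, and A- and B-type cyclins with Cdk1 drive mitosis. The Cip/Kip inhibitors (Cdkn1a, Cdkn1b, Cdkn1c) and the Ink4 inhibitors hold these kinases back. Adult β cells divide rarely, and in mice cyclin D2 and Cdk4 are known to be needed for β-cell mass. Because whole islets were sequenced, fewer cells of a type and less RNA per cell cannot be told apart, and neither can dividing β cells and other dividing cells.

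The upstream sequences of 5 members, chosen by the values that follow, are shown as a description. Whether their letters bear on those values was not tested. Cdk2, Mcm3 and Mcm5 had the smallest p among the members that were tested and have an entry in the promoter table, though none passed after adjustment. Cdk1 and Cdc20 are mitotic genes at a few reads per library. Each is the 250 bases before the RefSeq start (GRCm38.p6, the same assembly as mm10), 5′ to 3′ on the gene's strand. Cdk2 is at chr10:128705052-128705301 (minus strand), Mcm3 at chr1:20820313-20820562 (minus), Mcm5 at chr8:75109259-75109508 (plus), Cdk1 at chr10:69352913-69353162 (minus) and Cdc20 at chr4:118437344-118437593 (minus). Capitals mark matches, on either strand, to the E2F letters TTTCCCGC, TTTCGCGC, TTTGCCGC and TTTGGCGC, to the cell cycle homology region (CHR) letters TTTGAA, and to CCAAT. In Mcm5 the capitals before the CCAAT boxes cover 2 overlapping E2F matches, 1 on each strand.
Cdk2: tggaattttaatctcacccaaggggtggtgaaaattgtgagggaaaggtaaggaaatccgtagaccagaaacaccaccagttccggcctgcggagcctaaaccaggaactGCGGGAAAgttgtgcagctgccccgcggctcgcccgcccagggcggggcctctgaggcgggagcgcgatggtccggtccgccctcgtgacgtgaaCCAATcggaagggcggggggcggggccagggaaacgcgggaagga
Mcm3: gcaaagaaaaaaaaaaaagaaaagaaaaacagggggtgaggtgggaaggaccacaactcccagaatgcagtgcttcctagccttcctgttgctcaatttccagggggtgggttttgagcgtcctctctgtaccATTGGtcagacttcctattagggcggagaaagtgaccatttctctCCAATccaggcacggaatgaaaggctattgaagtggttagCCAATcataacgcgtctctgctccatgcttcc
Mcm5: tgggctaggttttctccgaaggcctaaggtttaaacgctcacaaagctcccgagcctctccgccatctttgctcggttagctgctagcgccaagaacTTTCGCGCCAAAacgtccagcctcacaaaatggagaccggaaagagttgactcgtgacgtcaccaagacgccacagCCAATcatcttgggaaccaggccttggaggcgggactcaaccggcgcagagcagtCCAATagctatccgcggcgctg
Cdk1: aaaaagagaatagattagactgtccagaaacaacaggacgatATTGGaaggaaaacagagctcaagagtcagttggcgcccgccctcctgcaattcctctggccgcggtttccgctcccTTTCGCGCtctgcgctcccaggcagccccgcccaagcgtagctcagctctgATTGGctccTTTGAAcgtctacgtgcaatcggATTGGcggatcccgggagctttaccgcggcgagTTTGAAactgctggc
Cdc20: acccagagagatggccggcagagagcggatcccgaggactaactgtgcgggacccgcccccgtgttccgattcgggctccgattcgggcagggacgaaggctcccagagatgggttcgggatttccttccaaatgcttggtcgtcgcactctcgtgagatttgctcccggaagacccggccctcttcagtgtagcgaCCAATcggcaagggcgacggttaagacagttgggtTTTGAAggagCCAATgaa

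Of the 35 members, 27 had an entry, with 31 windows in all. Entries were not found for Ccnd1, Ccnd2, Ccne2, Mcm4, Ccna2, Aurkb, Foxm1 and Cdkn1c. E2F letters were in 6 of the 31 windows (19.4%) and in 1.86% of all 32851 windows of the same length. CCAAT was in 21 of 31 windows (67.7%), against 33.8% of all windows, and the CHR letters in 6 of 31 (19.4%), against 16% of all. By role, CCAAT was in 10 of 11 mitotic and 8 of 9 replication windows, and in 1 of 5 inhibitor windows. CHR letters were in 5 of the 11 mitotic windows, those of Ccnb2, Cdc20, Cdk1, Mki67 and Top2a, and E2F letters in 3 of the 9 replication windows, those of Mcm5, Mcm6 and Mcm7. Windows follow the RefSeq starts, and some lie partly or wholly inside the gene as annotated. The E2f1 window (chromosome 2, 154569427 to 154569676, minus strand) lies wholly inside that gene (154559407 to 154569892). Its lack of matches thus does not describe the sequence before the annotated gene. Both Mcm7 windows (chromosome 5, 138171267 to 138171516 and 138171884 to 138172133) also lie wholly inside their gene (138164583 to 138172422). The window from 138171884 holds the E2F match counted above. A match is a description of the letters and shows no binding.

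**Figure D1:**
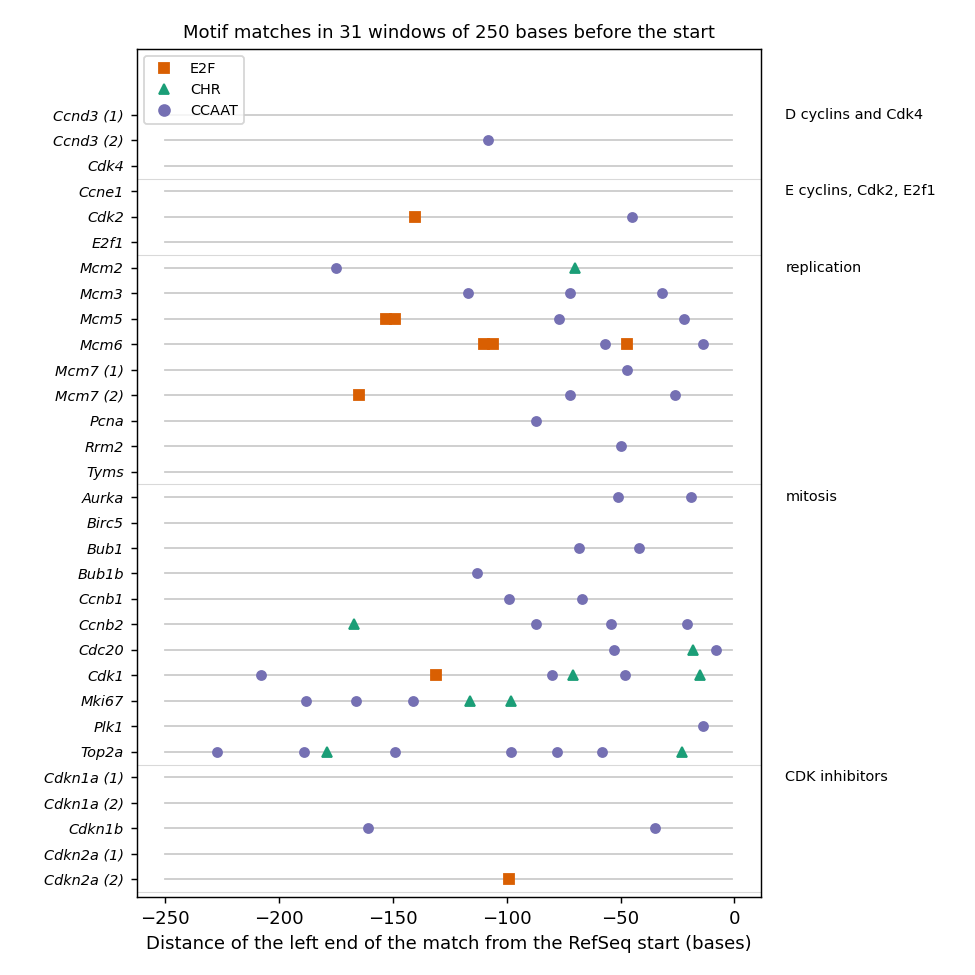
Positions of the E2F, CHR and CCAAT letter matches in the 31 windows of 250 bases before the RefSeq start, as distance of the left end of each match from the start in bases; rows are genes, with (1) and (2) for genes with more than 1 start. CCAAT matches lie in 10 of 11 mitotic windows and CHR matches in 5 of them, while the Cdk4 and Cdkn1a windows hold none of the 3. Some windows, among them that of E2f1 and both of Mcm7, lie inside the gene as annotated.

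Between 10356093 and 11902217 reads fell on genes in BKO libraries and between 11444273 and 12397139 in Cre libraries. Il22ra1, the targeted gene, had between 1 and 3 reads in BKO libraries and between 1 and 5 in Cre libraries, too few to check the labels. Levels are given as CPM, reads scaled to a common library depth. The 12 β-cell markers were all detected, at a summed 98210 to 156600 CPM in BKO and 121500 to 152800 CPM in Cre, with a negative log2 fold change for 10 of 12 (median -0.20), 0 past the adjusted threshold with edgeR, 4 lower at an unadjusted p under 0.05 and 2 lower with DESeq2. Over all 13583 genes tested, 8.7% were higher and 4.66% lower at an unadjusted p under 0.05. With DESeq2 1.24% of all genes were higher and 0.398% lower, and with edgeR 0% passed the adjusted threshold in each direction. Of the 8 red blood cell markers 5, globins among them, were at 0 in every library. All 16 endothelial markers had a higher mean in BKO, 0 of them past the adjusted threshold with edgeR, 14 at an unadjusted p under 0.05 and 9 with DESeq2, with a summed level of 671.9 to 971 CPM in BKO and 533.2 to 760.6 CPM in Cre, and none was at 0. The 15 stellate and mesenchymal markers summed to 183.7 to 279.8 CPM in BKO and 134.6 to 246.3 CPM in Cre, 14 of 15 with a higher mean in BKO and none at 0; 8 were higher at an unadjusted p under 0.05, 2 with DESeq2 and 0 with edgeR. The 15 macrophage markers summed to 161 to 220.1 CPM in BKO and 184 to 265.8 CPM in Cre, 3 with a higher mean in BKO and none at 0; 3 were lower at an unadjusted p under 0.05, 1 with DESeq2 and 0 with edgeR. The 12 markers of the other endocrine cells summed to 18120 to 36270 CPM in BKO and 13690 to 21660 CPM in Cre (11 with a higher mean in BKO, 9 higher at an unadjusted p under 0.05, 3 with DESeq2 and 0 with edgeR), and the 20 acinar markers to 1721 to 6002 CPM in BKO and 342.6 to 7672 CPM in Cre (17). Duct (2543 to 3749 CPM in BKO, 2768 to 3400 CPM in Cre), Schwann cell (23.2 to 40.3 CPM in BKO, 22.5 to 36.5 CPM in Cre) and lymphocyte markers (5.26 to 9.60 CPM in BKO, 4.55 to 11.1 CPM in Cre) overlapped in their sums, with no marker at 0 in every library. Of the 11 duct markers tested, 4 were higher at an unadjusted p under 0.05, 2 with DESeq2 and 0 with edgeR. Every BKO library was above every Cre library in 1 duct, 1 endothelial and 1 stellate marker, and below in 1 macrophage marker. Over all genes tested, 0.331% had every BKO library above and 0.177% every BKO library below. Of the stellate markers 14 were tested, and of the macrophage markers 14. Cells other than β cells also express cell cycle genes, and their part in the results below was not tested. The library Cre-1 had 27.3% of its reads set aside for low alignment quality, against 16.7 to 22.2% in the other 11.

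No member of the cell cycle list passed the test between BKO and Cre islets. Of the 35 members, 26 had enough reads to be tested, and with edgeR's quasi-likelihood test 0 were higher and 0 lower at a Benjamini-Hochberg adjusted p under 0.05, where the background over all 13583 genes tested was 0% in each direction. DESeq2 called 0 members too, beside 1.24% of all genes higher and 0.398% lower, and limma-voom called 0 members and 0% of all genes. At an unadjusted p under 0.05, 4 of the 26 were higher (Cdk2, Cdkn1c, Mcm3, Mcm5) and 0 lower, where 8.7% of all genes were higher and 4.66% lower. The median log2 fold change of the 26 was 0.0307 and that of all genes 0.00775; 17 of the 26 (65.4%) were positive, and 52.8% of all genes. In no tested member were the groups free of overlap, where 0.331% of all genes had every BKO library above every Cre library and 0.177% the reverse. Each of the 9 members that were not tested had too few reads to pass the count filter, and they were 8 mitotic genes and Cdkn2a.

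**Figure D2:**
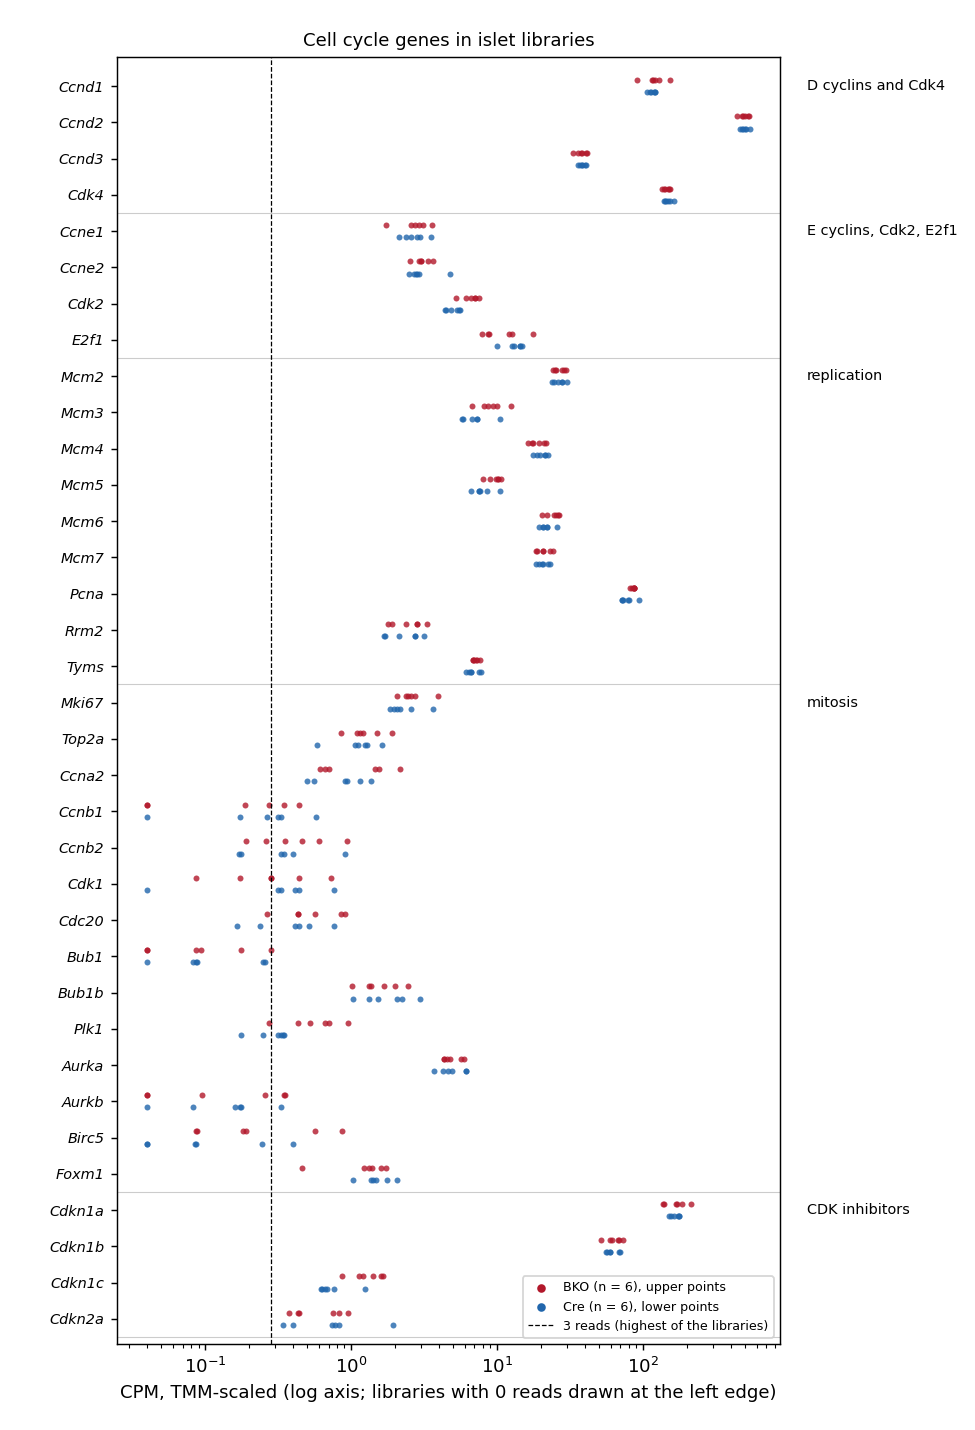
Level of each of the 35 members in CPM (log axis, TMM-scaled) with 1 point per library, BKO libraries above and Cre libraries below in each row; the dashed line is 3 reads in the library where they weigh most. D cyclins, Cdk4, Pcna, Cdkn1a and Cdkn1b lie above 30 CPM in every library, while Ccnb1, Ccnb2, Cdk1, Cdc20, Bub1, Plk1, Aurkb and Birc5 have libraries under the line in both genotypes.

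The D-type cyclins and Cdk4, which open the cycle, were among the most abundant members. The intervals of the folds of Ccnd2, Ccnd3 and Cdk4 were narrow around 1, and that of Ccnd1 was wider. Cyclin D2 (Ccnd2; chromosome 6, 127125162 to 127152193) had 438.7, 488.9 and 529.7 CPM as its lowest, median and highest level in BKO, against 463.6, 493.7 and 540.1 CPM in Cre. Its log2 fold change was -0.01 ± 0.056 (SE), with a 95% interval of 0.914 to 1.08 for the fold (edgeR adjusted p = 0.962). The groups overlapped over nearly their whole range, and 3 BKO libraries lay on each side of the Cre mean. Cyclin D1 (Ccnd1), the D cyclin most tied to growth factor signals, had 90.77, 118.7 and 153.3 CPM in BKO, against 106, 116.6 and 120.8 CPM in Cre. The BKO libraries were more spread, at 121 ± 20.3 CPM (SD, n = 6), than the Cre libraries, at 115 ± 5.86 CPM (SD, n = 6), with BKO-1 highest and BKO-4 lowest of all 12. For Ccnd1 the log2 fold change was 0.07 ± 0.090 (SE; edgeR adjusted p = 0.815), with a 95% interval of 0.920 to 1.198 for the fold. Without BKO-1 the log2 fold change was -0.02. Cyclin D3 (Ccnd3) ranged from 32.94 to 41.03 CPM in BKO and from 35.89 to 40.5 CPM in Cre, and Cdk4, the kinase of the D cyclins, from 134.3 to 152.2 CPM in BKO and from 139 to 164 CPM in Cre. The 95% intervals of the fold were 0.899 to 1.08 for Ccnd3 and 0.901 to 1.05 for Cdk4 (edgeR adjusted p = 0.924 and 0.818).

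Per length, on the scale of CPM per kilobase of exon, Ccnd2 was the highest of the 35 members in both genotypes, at 52.3 ± 3.67 in BKO and 52.7 ± 2.84 in Cre (SD, n = 6 each). Cdkn1a (47.6 and 46.8), Cdk4 (44.3 and 45.6), Pcna (35.6 and 32.7), Ccnd1 (25.7 and 24.5) and Cdkn1b (13.9 and 13.6) followed in the same order in BKO and Cre. In BKO the range of Ccnd2 overlapped that of Cdkn1a and the range of Cdkn1a that of Cdk4, while those of Cdk4 and Pcna, of Pcna and Ccnd1, and of Ccnd1 and Cdkn1b did not. The Ccnd2 level per length was 2.08 ± 0.350 times that of Ccnd1 in BKO and 2.16 ± 0.113 times in Cre (SD, n = 6 each), and 12.2 ± 1.41 times that of Ccnd3 in BKO and 12.1 ± 0.827 times in Cre. From Mcm4 to E2f1, ranked 7 to 12 in BKO at 5.26 to 3.58 CPM per kilobase, each gene's range overlapped that of the next. At the foot of the order, in both genotypes, Bub1, Ccnb1, Aurkb, Cdk1 and Birc5 were under 0.1 CPM per kilobase.

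Among the genes of the step into replication, Cdk2 had the smallest p of any member. Cdk2 (chromosome 10, 128697939 to 128705031, minus strand) had between 60 and 82 reads in BKO libraries and between 51 and 68 in Cre libraries. On the CPM scale its lowest, median and highest levels were 5.23, 6.87 and 7.56 in BKO, against 4.385, 5.08 and 5.60 in Cre. Of the 6 BKO libraries 5 were above the highest Cre library, and BKO-4 lay inside the Cre range. This gave a log2 fold change of 0.40 ± 0.127 (SE), a fold of 1.32 with a 95% interval of 1.10 to 1.59 (edgeR unadjusted p = 0.00567, adjusted p = 0.197; DESeq2 adjusted p = 0.141). Leaving out 1 library at a time gave 0.35 to 0.44, and the adjusted p was lowest, 0.078, without BKO-4. In that run 262 of all 13656 genes tested passed the adjusted threshold, the most with any library left out. Per length, Cdk4 was 42.1 ± 4.30 times Cdk2 in BKO and 57.3 ± 8.49 times in Cre (SD, n = 6 each), with ranges of 37.6 to 49.2 and 48.7 to 71.6. Cdk2 overlaps Pmel on the opposite strand, which had 2 to 4 reads in BKO and 1 to 5 reads in Cre libraries. Other members also overlap a gene on the opposite strand in the annotation. Among them are Ccnd1 (LTO1), Ccnd3 (Bysl), Cdk4 (Tspan31), Ccne2 (Ints8), Mcm7 (Cops6, Ap4m1), Ccna2 (Exosc9) and Cdc20 (Elovl1). The counting's strand setting is not known here, so their reads may include those of the partner or have been set aside as ambiguous.

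The cyclin partners of Cdk2 had folds near 1 with wider intervals. Cyclin E1 (Ccne1) ranged from 1.72 to 3.57 CPM in BKO and from 2.13 to 3.53 CPM in Cre, and cyclin E2 (Ccne2) from 2.53 to 3.62 CPM in BKO and from 2.48 to 4.73 CPM in Cre, where Cre-1 stood alone at the top. Their folds had 95% intervals of 0.762 to 1.35 and 0.766 to 1.31 (edgeR adjusted p = 0.985 and 0.996). E2f1, the transcription factor that switches on replication genes, had 7.93, 10.45 and 17.6 CPM as lowest, median and highest in BKO, against 9.975, 13.7 and 14.9 CPM in Cre. BKO-4 was the highest of all 12 libraries, while 3 BKO libraries were below every Cre library. For E2f1 the log2 fold change was -0.22 ± 0.173 (SE; edgeR adjusted p = 0.639) and -0.41 without BKO-4, with an adjusted p of 0.132. Leaving out BKO-4 raised the calls over all genes from 0 to 262.

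None of the 9 replication genes passed the test. Of the 9, 7 (77.8%) had a positive log2 fold change, beside 52.8% of all genes tested, and their median was 0.0812, beside 0.00775 for all genes; several of the positive ones were near 0. Mcm3, a subunit of the replicative helicase (chromosome 1, 20802968 to 20820312), had 6.72, 9.005 and 12.45 CPM as lowest, median and highest in BKO, against 5.74, 6.97 and 10.45 CPM in Cre. BKO-2 was the highest library and Cre-5 the second highest, so the groups overlapped over most of their range. Its log2 fold change was 0.35 ± 0.162 (SE; edgeR unadjusted p = 0.0438, adjusted p = 0.357), and it was 0.23 without BKO-2 and 0.49 without Cre-5. Mcm5, another subunit (chromosome 8, 75109569 to 75128439), had 8.01, 9.97 and 10.7 CPM in BKO, against 6.62, 7.57 and 10.52 CPM in Cre, where Cre-6 was alone above 8.52. The Mcm5 difference on the log2 scale was 0.26 ± 0.120 (SE; edgeR unadjusted p = 0.0466, adjusted p = 0.366). These subunits form 1 ring with Mcm2, Mcm4, Mcm6 and Mcm7, and the log2 fold changes of the other four were smaller, with no test between subunits. Mcm6 was at 0.15 ± 0.085, Mcm7 at 0.02 ± 0.083, Mcm2 at 0.00 ± 0.074 and Mcm4 at -0.10 ± 0.088 (log2 fold change ± SE; edgeR adjusted p of 0.487, 0.958, 0.998 and 0.696).

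Pcna, the sliding clamp (chromosome 2, 132249162 to 132253314), had the smallest coefficient of variation of the 35 members in BKO. It had 81.8, 86.55 and 87.3 CPM as lowest, median and highest in BKO, against 72.2, 76 and 93.8 CPM in Cre, and the coefficient of variation was 2.54% in BKO and 10.7% in Cre. All 6 BKO libraries were above the Cre mean, but Cre-1 was the highest library of the 12. On the log2 scale the difference was 0.13 ± 0.062 (SE; edgeR adjusted p = 0.392), and without Cre-1 it was 0.17 with an adjusted p of 0.122. Rrm2, a subunit of the enzyme that makes deoxyribonucleotides, ranged from 1.78 to 3.29 CPM in BKO and from 1.68 to 3.18 CPM in Cre. Tyms, which makes thymidylate, ranged from 6.80 to 7.68 CPM in BKO and from 6.13 to 7.74 CPM in Cre. Their 95% intervals for the fold were 0.771 to 1.45 and 0.895 to 1.22.

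**Figure D3:**
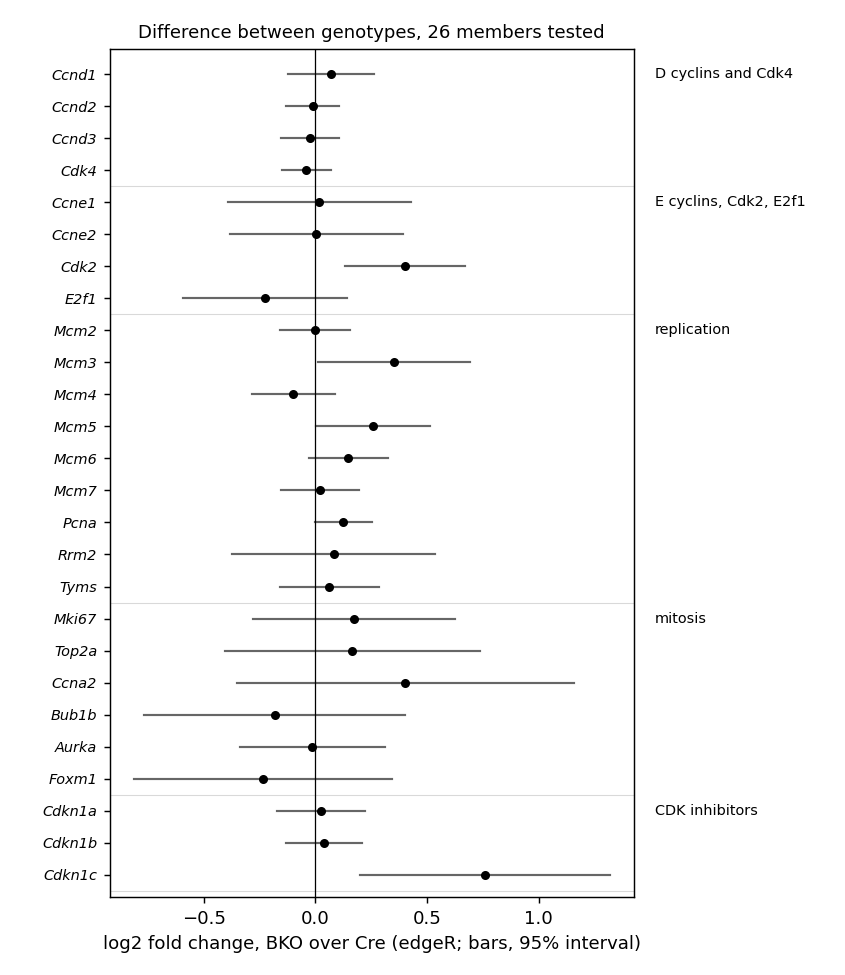
Log2 fold change of BKO over Cre for the 26 members tested (points, edgeR; bars, 95% interval), grouped by role. The bars of D cyclins, Cdk4, Cdkn1a and Cdkn1b are shorter than those of the mitotic genes, and all of these cross 0. Those of Cdk2, Cdkn1c, Mcm3 and Mcm5 lie above 0 before adjustment.

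Mitotic transcripts were scarce in both genotypes. The 14 mitotic members together held between 149 and 189 reads per BKO library and between 158 and 189 per Cre library, or 15.8 ± 1.47 CPM in BKO islets and 14.95 ± 0.800 CPM in Cre islets (SD, n = 6 each). Mki67, the proliferation marker Ki-67, had 2.07, 2.50 and 3.94 CPM as lowest, median and highest in BKO, against 1.85, 2.11 and 3.65 CPM in Cre. A single library was high in each genotype, BKO-6 and Cre-3, and the other 10 overlapped. Mki67 had a log2 fold change of 0.17 ± 0.215 (SE; edgeR adjusted p = 0.805), with a 95% interval for the fold of 0.824 to 1.54, and of 0.02 without BKO-6. Top2a, the topoisomerase that untangles chromosomes, ranged from 0.851 to 1.92 CPM in BKO and from 0.580 to 1.62 CPM in Cre, and cyclin A2 (Ccna2) from 0.610 to 2.17 CPM in BKO and from 0.497 to 1.38 CPM in Cre. The fold intervals were 0.755 to 1.665 for Top2a and 0.783 to 2.23 for Ccna2, wide enough to hold a fold of 2 for Ccna2. In Ccna2, 3 BKO libraries (BKO-1, BKO-3, BKO-5) were above every Cre library and the other 3 were among the low ones.

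The kinase Aurka was the most abundant mitotic member per length, at 1.94 ± 0.280 CPM per kilobase in BKO and 1.96 ± 0.388 in Cre (SD, n = 6 each). It ranged from 4.30 to 5.92 CPM in BKO and from 3.70 to 6.13 CPM in Cre (log2 fold change -0.01 ± 0.155, SE; edgeR adjusted p = 0.986). Bub1b, a spindle checkpoint kinase, ranged from 1.01 to 2.44 CPM in BKO and from 1.03 to 2.98 CPM in Cre. Foxm1, the transcription factor of mitotic genes, ranged from 0.457 to 1.72 CPM in BKO, with BKO-3 lowest, and from 1.02 to 2.07 CPM in Cre. The folds of Bub1b and Foxm1 had 95% intervals of 0.587 to 1.32 and 0.569 to 1.27 (edgeR adjusted p = 0.849 and 0.784).

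The other 8 mitotic members had so few reads that they were not tested. Bub1, a checkpoint kinase, had 0 to 3 reads in each library of either genotype. Cyclin B1 (Ccnb1) had 0 to 5 reads in BKO and 0 to 7 in Cre, its kinase Cdk1 1 to 8 in BKO and 0 to 9 in Cre, and the kinase Aurkb 0 to 4 in both. Cyclin B2 (Ccnb2) had 2 to 10 reads in BKO and 2 to 11 in Cre, and Cdc20, the activator of the anaphase-promoting complex, 3 to 10 in BKO and 2 to 9 in Cre. For these 6 genes the BKO to Cre ratio of summed reads lay between 0.752 and 1.36, and each 95% interval, which covers counting error only, held 1. Over all 8 untested mitotic members the summed level averaged 2.79 ± 0.354 CPM in BKO islets and 2.18 ± 0.372 CPM in Cre islets (SD, n = 6 each), with ranges of 2.18 to 3.285 CPM in BKO and 1.72 to 2.65 CPM in Cre that overlapped.

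Plk1 and Birc5 had the largest ratios among the untested members. Plk1, a mitotic kinase, had 5, 8, 3, 6, 10 and 7 reads in BKO-1 to BKO-6, against 4, 4, 4, 2, 4 and 3 reads in Cre-1 to Cre-6. Of the BKO libraries 5 were above the highest Cre library on the CPM scale (0.274 to 0.945 CPM in BKO, 0.177 to 0.344 CPM in Cre). The ratio of summed reads was 2.00, from 39 and 21 reads, with a counting interval of 1.15 to 3.57, and leaving out 1 library at a time gave 1.76 to 2.20. Without the count filter edgeR gave Plk1 a log2 fold change of 0.96 ± 0.419 (SE; unadjusted p = 0.0303, adjusted p = 0.389), where 6.5% of 19453 genes were higher at an unadjusted p under 0.05 4.39% were lower, and 0% passed the adjusted test. Birc5, which encodes survivin, had 10, 1, 2, 1, 2 and 6 reads in BKO-1 to BKO-6, against 1, 1, 5, 0, 3 and 0 reads in Cre-1 to Cre-6. Its ratio of 2.36 was 1.56 without BKO-1 and 3.89 without Cre-3, and edgeR without the count filter gave an adjusted p of 0.575.

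Of the inhibitors, the abundant pair was even between genotypes and Cdkn1c was higher in BKO before adjustment. Cdkn1a, a p53 target and inhibitor of Cdk2, had 137.8, 169.9 and 212.5 CPM as lowest, median and highest in BKO, against 150.3, 168.9 and 176.6 CPM in Cre. BKO libraries were the more variable, with a coefficient of variation of 16.8% against 6.64% in Cre, and held both ends of the range (BKO-1 lowest, BKO-2 highest). Cdkn1b ranged from 51.5 to 72.4 CPM in BKO and from 56.2 to 70.1 CPM in Cre. The 95% intervals for the fold were 0.8885 to 1.165 for Cdkn1a and 0.912 to 1.15 for Cdkn1b (edgeR adjusted p = 0.95 and 0.904).

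Cdkn1c, an imprinted inhibitor expressed from the maternal allele (chromosome 7, 143458339 to 143461050), had 14, 18, 18, 10, 12 and 15 reads in BKO-1 to BKO-6, against 8, 9, 8, 7, 15 and 8 reads in Cre-1 to Cre-6. It averaged 1.31 ± 0.295 CPM in BKO islets and 0.768 ± 0.235 CPM in Cre islets (SD, n = 6 each). All 6 BKO libraries were above the Cre mean, 3 of them above every Cre library, and Cre-5 was alone among the Cre libraries in reaching the BKO range. Its log2 fold change was 0.76 ± 0.266 (SE), with a 95% interval for the fold of 1.15 to 2.49 (edgeR unadjusted p = 0.0106, adjusted p = 0.229; DESeq2 adjusted p = 0.255). Leaving out 1 library at a time gave 0.68 to 0.945, the highest without Cre-5. Cdkn1c overlaps Gm44732 on the opposite strand. Cre-5 also had the highest summed endothelial (760.6 CPM) and stellate (246.3 CPM) levels of the Cre libraries. The BKO libraries were mixed: BKO-3, highest in Cdkn1c at 1.646 CPM, had the lowest BKO stellate sum (183.7 CPM). BKO-2, next at 1.59 CPM, had the highest (279.8 CPM). The part of these cells in the Cdkn1c values was not tested. Cdkn2a, whose reads join the transcripts of p16Ink4a and p19Arf, had 4 to 11 reads in BKO and 4 to 22 in Cre, with Cre-4 alone at 22. The ratio of its summed reads was 0.765, with a counting interval of 0.502 to 1.155, and 1.03 without Cre-4.

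**Figure D4:**
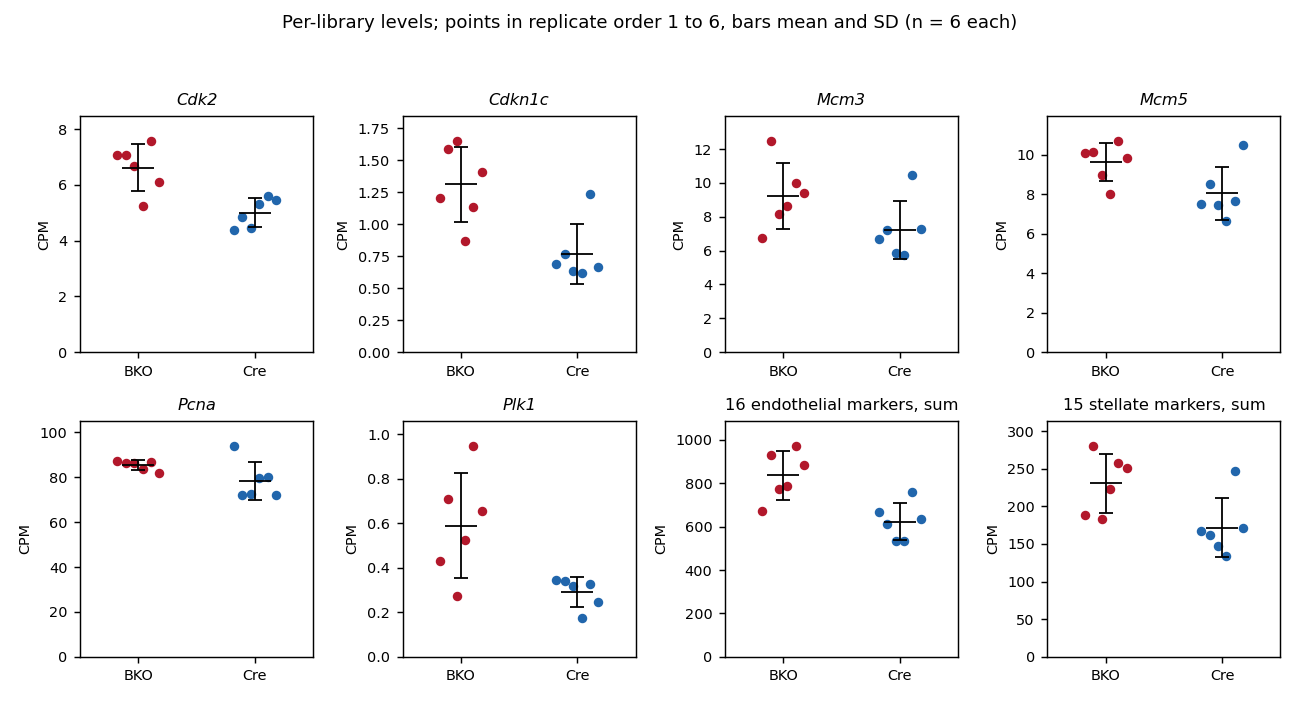
CPM per library for Cdk2, Cdkn1c, Mcm3, Mcm5, Pcna and Plk1, and the summed CPM of the endothelial and stellate markers, with BKO left and Cre right (points, 6 libraries a genotype in replicate order; bars, mean and SD). For Cdk2 and Plk1, 5 of 6 BKO libraries are above the highest Cre library, and in every panel the groups overlap.

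The libraries did not rank alike across the members. BKO-5 was the highest of the 12 in 6 of the 35 members, BKO-6 and Cre-1 in 4 each, and Cre-3 in 0, while Cre-4 was the lowest in 8. The summed level of the 9 replication members averaged 205 ± 8.10 CPM in BKO islets and 192 ± 9.76 CPM in Cre islets, and that of the 4 inhibitors 234 ± 24.5 CPM in BKO islets and 229.5 ± 11.9 CPM in Cre islets (SD, n = 6 each). The variance within genotypes relative to that of counting alone was between 0.92 and 1.57 for Cdk2, Ccne1 and Ccne2 and 0.807 for Cdkn1c, but 21.4 for Ccnd1, 31.3 for Cdkn1a and 8.16 for E2f1. A value of 1 is the spread that counting alone would give.

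In 6 further lists of cell cycle genes and their regulators, edgeR also called 0 genes. Of 30 further replication genes, 27 were tested, with a median log2 fold change of 0.0296, and none had an unadjusted p under 0.05. The smallest p belonged to Tk1 (0.42 ± 0.222) and the licensing factor Cdt1 (0.36 ± 0.216) among the positive ones, and to Rpa1 (-0.10 ± 0.055) and Gins2 (-0.43 ± 0.290) among the negative (log2 fold change ± SE). Of 47 further mitotic genes, 26 were tested, with a median of 0.0262, and at an unadjusted p under 0.05 there were 3 higher and 1 lower. Over all genes tested, 8.7% were higher and 4.66% lower at that p. With DESeq2 1 of these mitotic genes was higher and 1 lower, beside 1.24% and 0.398% of all genes. Hmgb2, a chromatin protein of dividing cells, averaged 11.9 ± 0.763 CPM in BKO islets and 8.905 ± 1.08 CPM in Cre islets (SD, n = 6 each; log2 fold change 0.42 ± 0.1003, edgeR adjusted p = 0.139 with all libraries and 0.0415 without BKO-4, DESeq2 adjusted p = 0.0288). Racgap1, a regulator of cell division, averaged 21.6 ± 6.02 CPM in BKO islets and 30.6 ± 3.18 CPM in Cre islets (-0.50 ± 0.144, edgeR adjusted p = 0.172 with all libraries and 0.00723 without BKO-4, DESeq2 adjusted p = 0.0392). Without BKO-4, edgeR called 135 of all 13656 genes tested higher and 127 lower, where the main test called 0. Pttg1, or securin, was at 0.27 ± 0.1002 and the kinetochore gene Spc25 at -0.23 ± 0.120.

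Among 31 genes of the retinoblastoma, E2F and MYB group 30 were tested, with a median of -0.0292, and 0 were higher and 3 lower at an unadjusted p under 0.05. For this list and those below, the shares over all genes tested at that p were 8.7% higher and 4.66% lower. E2f2, an activating E2F factor, averaged 4.86 ± 0.871 CPM in BKO islets and 6.615 ± 1.23 CPM in Cre islets (SD, n = 6 each; log2 fold change -0.44 ± 0.155, edgeR adjusted p = 0.229), with all 6 BKO libraries below the Cre mean. The kinases Cdk6 (0.44 ± 0.261) and Wee1 (0.19 ± 0.097) had the smallest p on the other side. Of the 4 further inhibitors 3 were tested and all had a negative log2 fold change, with Cdkn2c at -0.21 ± 0.161 and Cdkn2b at -0.05 ± 0.104. Of 20 p53 targets and regulators 3 were higher and 1 lower at an unadjusted p under 0.05. Plk2 (0.30 ± 0.092) and Bax (0.13 ± 0.050) had the smallest p of the higher ones, and Tigar was at -0.12 ± 0.062. The lower one was Ccng1 (-0.12 ± 0.053), which is also in the retinoblastoma, E2F and MYB list and is 1 of the 3 lower genes there. Of 22 regulators of β-cell replication 21 were tested, 4 higher and 2 lower at an unadjusted p under 0.05. The prolactin receptor Prlr, which acts in β-cell growth of pregnancy, averaged 266 ± 48.9 CPM in BKO islets and 329.7 ± 42.55 CPM in Cre islets (-0.31 ± 0.126, edgeR adjusted p = 0.307). Tph1, the enzyme of serotonin synthesis, averaged 35.1 ± 17.1 CPM in BKO islets and 63.8 ± 19.7 CPM in Cre islets (SD, n = 6 each; -0.86 ± 0.353, edgeR adjusted p = 0.331). Both had all 6 BKO libraries below the Cre mean. The hepatocyte growth factor receptor Met was at 0.26 ± 0.088 and Nfatc1 at 0.21 ± 0.080.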

How the data were processed

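Bulk RNA sequencing of islets gave 12 libraries, 6 BKO and 6 Cre, grouped by the labels' titles. The submitters' processing notes name HISAT2 2.0.5 as a tool beside HTSeq, and mm10 as build; which HTSeq version, annotation and strand setting were used is not given in the sources read. The values used are the authors' deposited raw read counts per gene symbol. HTSeq's 5 summary lines entered neither library sizes nor tests; of all counts listed for BKO and for Cre libraries they held 9.21 to 11.2% and 8.84 to 10.2% (no feature), 1.18 to 1.27% and 1.05 to 1.25% (ambiguous), 16.7 to 20.5% and 16.9 to 27.3% (low alignment quality), 1.72 to 3% and 2.19 to 2.72% (not aligned) and 4.83 to 5.39% and 4.79 to 5.61% (not unique). A series-wide table of scaled values was not used here.

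The main test was edgeR 4.0.16 in R 4.3.3: filterByExpr on genotype, TMM scaling, a robust glmQLFit and glmQLFTest, with Benjamini-Hochberg adjustment over the 13583 genes tested and a threshold of 0.05. No p was computed over the members alone. CPM were computed on TMM-adjusted library sizes, and each fold change is that of BKO over Cre; standard errors come from the F statistic and intervals are at 95%. Limma 3.58.1 (voom) and DESeq2 1.42.0 were alternatives. The floor of 3 reads was 0.259 to 0.284 CPM in BKO and 0.238 to 0.265 CPM in Cre libraries. Ratios of summed reads have Clopper-Pearson intervals for counting error only. Lengths and positions come from GENCODE M21 (mm10), and promoters from RefSeq. No libraries of a genotype agreed within counting noise (chi-square over degrees of freedom between 4.84 and 28.3), so none was treated as a repeat run of another. Each was counted as 1 replicate, though this check cannot tell separate animals from separate preparations of 1 animal or pool. The members and lists were chosen with earlier results of these data known. The named genes are all 35 members and, in each further pathway list, the genes past the threshold or, where there were none, the 2 with the smallest p in each direction.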

Additional observations from a re-analysis of the deposited data

Results flagged for a closer look

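Within the 6 libraries of a genotype, 7 of the members' values stood apart from the others by the gap to the nearest library relative to the range. For normally distributed values about 1 in 20 groups do so by chance, a share that was not checked for low read counts. All 35 members in both genotypes were looked at. In BKO, Mki67 was highest in BKO-6 at 3.94 CPM, with the next library at 2.74 CPM. The other 6 were each the highest Cre library. Cre-1 stood apart in Ccne2 at 4.73 CPM, next to 2.91 CPM, and in Pcna at 93.8 CPM, next to 80 CPM; it is the library with 27.3% of reads set aside for low alignment quality. Cre-5 stood apart in Mcm3 at 10.45 CPM, next to 7.29 CPM, and in Cdkn1c at 1.23 CPM, next to 0.767 CPM. Cre-6 stood apart in Ccnb2 at 0.911 CPM (11 reads), next to 0.397 CPM, and Cre-4 in Cdkn2a at 1.94 CPM (22 reads), next to 0.828 CPM.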

How the results depend on the processing

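The count of members past the threshold was 0 in every alternative run: scaling by RLE or by TMM with acinar genes left out, dropping the count filter or asking for 10 reads in every library, DESeq2, limma-voom, fitting without robust shrinkage, adding the replicate block, a threshold of 0.1 and each library left out. The median log2 fold change of the members was 0.0174 to 0.0549 with all libraries, and 0.00678 (without BKO-6) to 0.0461 (without Cre-2) with 1 left out. Calls over all genes were 0 in the main test, 223 with DESeq2 and 364 with the replicate block, and 0 to 262 with 1 library left out (262 without BKO-4, 110 without Cre-5, 6 without Cre-1 and 5 without BKO-3). Same-numbered libraries deviated together in 4 of 6 pairs (correlation over 0.1, range -0.0791 to 0.279), and 7 of 12 libraries correlated best with their own number, a hint of pairing from the data. Since the labels give no shared source and 2 of 6 pairs were not over 0.1, the block was not used in the main test.

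Outside the libraries left out, signs turned in Ccne2, Mcm2 and Rrm2 among the genes named. Ccne2 was at -0.00488 with RLE scaling, -0.0082 without the count filter, -8.86e-05 with at least 10 reads in every library and -0.00442 with DESeq2. Mcm2 was at 0.00604 and Rrm2 at -0.0561 with limma-voom, and Mcm2 at 0.000372 with the replicate block. With 1 library left out, the log2 fold changes ran from -0.0164 to 0.124 for Ccnd1, -0.0497 to 0.019 for Ccnd2, -0.086 to 0.118 for Ccne1, -0.0578 to 0.15 for Ccne2, -0.0465 to 0.0277 for Mcm2, -0.0405 to 0.0518 for Mcm7, -0.0115 to 0.171 for Rrm2, -0.102 to 0.0484 for Aurka, -0.066 to 0.0751 for Cdkn1a, -0.0125 to 0.074 for Cdkn1b and -0.136 to 0.00843 for Cdkn2b; the cause was not tested. Of the other pathway genes, Racgap1 passed with DESeq2 (adjusted p = 0.0392), with the replicate block (0.00977) and without BKO-4 (0.00723), and Hmgb2 with DESeq2 and without BKO-4. Depth limits the 9 members without a test.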

Other observations

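Among the 47 further mitotic genes, Spc25 stood far above the rest per length, at 52.9 CPM per kilobase in BKO and 61.9 in Cre, where the next gene, Cks1b, was at 9.66 in BKO and 10.8 in Cre and the median of the list was 0.228 in BKO and 0.253 in Cre. Spc25 (chromosome 2, 69193895 to 69206194, minus strand) lies 4878 bases from G6pc2 (69211073 to 69227841, plus strand), a β-cell enzyme gene at 823 CPM per kilobase in BKO and 923 in Cre. The source of the Spc25 reads was not tested.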
